A study of Mus musculus with 4 samples.

Results

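Lysosomes degrade the lipoproteins and cell debris that macrophages take up. Their hydrolases work at acid pH, which the vacuolar ATPase (V-ATPase) maintains by pumping protons into the lumen through a membrane sector (Vo) driven by an ATP-hydrolysing sector (V1). Many of the genes are controlled by the related transcription factors TFEB and TFE3, which bind an E-box known as the CLEAR element. Here 37 such genes were examined: Tfeb and Tfe3, 3 lysosomal membrane proteins, 20 hydrolases, activators and related proteins, and 12 V-ATPase subunits. They were taken by name from a fixed list and were compared with all 21468 protein-coding genes that could be given a strand, members included.

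Peak lists from ATAC-seq were available for RAW264.7, a macrophage-like mouse line. ATAC-seq uses the Tn5 transposase to cut and tag open chromatin, and a peak is a region in which such cuts accumulate. All cells were wild type and were given dye-labelled oxidized LDL (DIL-oxLDL, 25 ug/mL) for 24 h, with the solvent DMSO in the control group (2 libraries) or with 40 ug/mL esculetin, a plant coumarin, in the esculetin group (2 libraries). All libraries come from 1 transformed line, and nothing in the labels says that replicates were separate cultures, so any p-value measures the spread between these libraries only.

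The lists differed in length. On chromosomes 1 to 19, X and Y the control lists held 19475 and 27731 peaks, and the esculetin lists held 8581 and 12680. Background coverage, a measure of depth recovered from the lists, ranged from 4.08 (control replicate 2) to 6.51 (control replicate 1) and overlapped between the groups. Of 10 macrophage marker genes, 4 and 6 were called at their promoter in the controls and 1 and 2 with esculetin. Mertk, Itgam, Adgre1 and Csf1r had none in any library. None of 25 markers of T cells, B cells, epithelium, kidney epithelium or fibroblasts had a promoter peak in any library. Because a list holds only regions that passed the peak caller, the absence of a peak means that no call was made at that depth, not that the site was closed.

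The DNA at these promoters was inspected first, since the CLEAR element contains the E-box core CACGTG. RefSeq promoter windows of 300 bases (GRCm38.p6, the assembly of mm10) were listed for 30 of the 37 genes. The core was present in 11 of these 30 genes, against 8.91% of 17492 coding genes with a listed window. The longer palindrome TCACGTGA, which contains the core, was present in 6 of the 30, against 1.41% of the coding genes. The CCAAT box (CCAAT on either strand) was in 11 of the 30 genes (42.3% of coding genes), and the GC box (GGGCGG on either strand) was in 21 of the 30 (49.2% of coding genes, and 71.4% of the 5485 windows of coding genes with a promoter peak in all 4 libraries). Among windows rather than genes, the core was in 29.7% of 37 member windows, 7.15% of all 32851 windows and 11.5% of those 5485 windows. The palindrome was in 16.2% of the member windows and 2.39% of those 5485 windows. TFEB and TFE3 control many lysosomal genes, so a high share of the core was partly given by the choice of genes. A match is a description of the sequence and does not show that a factor was bound.

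Stretches of these windows are shown for 8 genes to make the spacing of the E-box cores visible, in the orientation of the gene, with the core, or the full 8-base palindrome where it is complete, in capitals. They lie at chr8:3500399-3500548 (Mcoln1, plus strand), chr8:13159041-13159190 (Lamp1, plus), chr7:142387828-142387977 (Ctsd, minus), chr2:164833653-164833802 (Ctsa, plus, second listed start), chr8:105566035-105566184 (Atp6v0d1, minus), chr16:44139290-44139439 (Atp6v1a, minus), chrX:134601106-134601255 (Gla, minus) and chr4:117887300-117887449 (Atp6v0b, minus).
Mcoln1: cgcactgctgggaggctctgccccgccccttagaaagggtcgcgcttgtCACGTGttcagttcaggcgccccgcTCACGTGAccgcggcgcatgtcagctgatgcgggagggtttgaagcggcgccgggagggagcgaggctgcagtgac
Lamp1: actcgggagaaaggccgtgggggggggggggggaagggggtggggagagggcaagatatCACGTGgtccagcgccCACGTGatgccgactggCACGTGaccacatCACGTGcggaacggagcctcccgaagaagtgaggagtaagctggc
Ctsd: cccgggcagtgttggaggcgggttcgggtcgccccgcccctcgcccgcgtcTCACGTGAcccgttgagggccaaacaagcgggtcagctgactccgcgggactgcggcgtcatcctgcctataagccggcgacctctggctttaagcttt
Ctsa: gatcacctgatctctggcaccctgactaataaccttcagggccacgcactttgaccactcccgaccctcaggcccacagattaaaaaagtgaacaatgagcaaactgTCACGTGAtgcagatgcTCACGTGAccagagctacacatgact
Atp6v0d1: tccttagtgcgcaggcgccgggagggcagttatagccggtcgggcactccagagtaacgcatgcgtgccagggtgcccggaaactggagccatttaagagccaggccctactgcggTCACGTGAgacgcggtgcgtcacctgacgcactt
Atp6v1a: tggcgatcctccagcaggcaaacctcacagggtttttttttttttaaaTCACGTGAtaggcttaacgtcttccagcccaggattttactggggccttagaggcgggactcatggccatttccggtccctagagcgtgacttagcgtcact
Gla: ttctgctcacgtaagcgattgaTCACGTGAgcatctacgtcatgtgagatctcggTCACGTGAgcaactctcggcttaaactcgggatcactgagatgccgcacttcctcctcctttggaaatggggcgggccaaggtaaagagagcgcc
Atp6v0b: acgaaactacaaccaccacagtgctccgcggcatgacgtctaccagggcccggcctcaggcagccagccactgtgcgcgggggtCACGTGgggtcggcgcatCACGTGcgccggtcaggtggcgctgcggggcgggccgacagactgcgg

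Lamp1 held 4 cores in its stretch, Mcoln1, Ctsa, Gla and Atp6v0b held 2 each, and Ctsd, Atp6v0d1 and Atp6v1a held 1 each. The summits of the promoter peaks lay close to these letters in many cases. Over the 11 genes with a core there were 37 promoter peaks in the 4 libraries, of which 30 had their summit within 150 bp of a core, at a median distance of 62 bp. At Mcoln1 the distances were 40 and 6 bp in the controls and 26 and 9 bp with esculetin. At Glb1 they were 14 and 15 bp in the controls and 23 bp in esculetin replicate 2. At Ctsl the summits of all 4 libraries lay far from its only core, at 330 to 365 bp. Single summits lay farther away in control replicate 1, at 930 bp for Ctsa and 406 bp for Atp6v1a. Promoter summits and E-box cores both gather near start sites, so a short distance is partly given by the choice of windows.

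**Figure D1:**
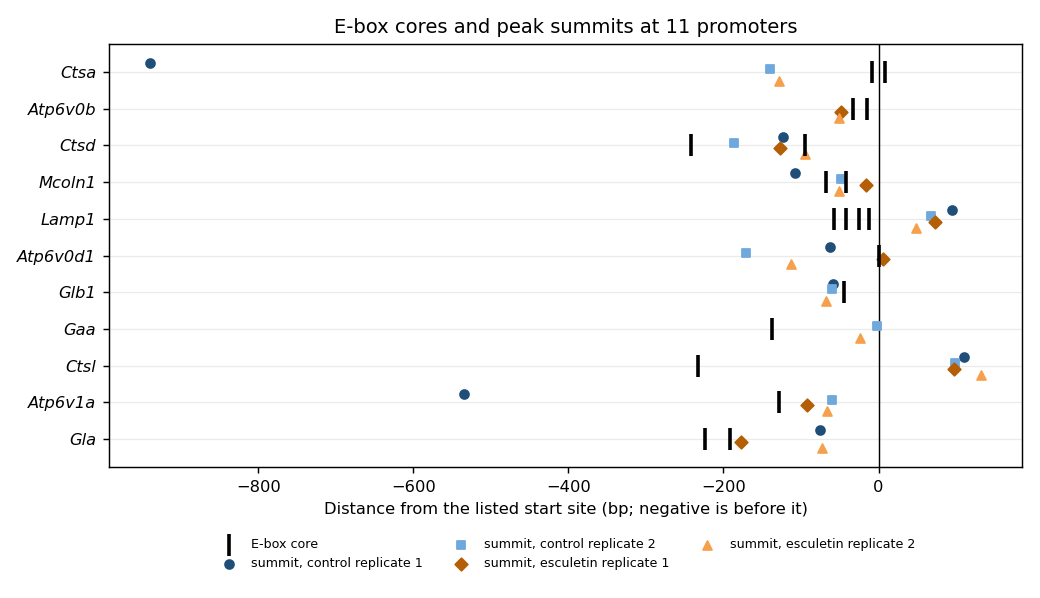
Positions of E-box cores (black ticks) and of promoter peak summits (one symbol per library) at the 11 genes with a core, in bp from the listed start site beside the core. Most summits fall within 150 bp of a tick; the distant control replicate 1 summits of Ctsa and Atp6v1a belong to other peaks of the same 1 kb windows.

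Promoter peaks were then counted. A gene was given a promoter peak when a summit lay within 1 kb of its 5′ end. In control replicates 1 and 2, 29 and 29 of the 37 genes had one (78.4% in each), and in esculetin replicates 1 and 2, 26 (70.3%) and 29 (78.4%) had one. The group means were 29.0 ± 0 in the control group and 27.5 ± 2.12 in the esculetin group (SD, n = 2 each), so the groups overlapped and the difference of -1.5 genes was smaller than the SD of the esculetin group. Over all coding genes the shares were 37.3% and 38.8% in the controls and 27.9% and 34.9% with esculetin. The lysosomal list thus had a promoter peak about as often in the shorter esculetin lists as in the control lists, but this depended on the lists being used whole. When each list was reduced to its 8581 strongest peaks, 21 and 5 of the 37 genes were called in the control libraries, against 26 and 25 in the esculetin lists (means 13.0 and 25.5). Control replicate 2 stood far below the rest, and without it the control value was 21. Coding genes as a whole moved the same way at that length, with shares of 25.5% and 17.9% in the controls and 27.9% and 30.2% with esculetin.

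Of the 37 genes, 21 had a promoter peak in all 4 libraries, where 24.8% of coding genes did, and 14 differed between libraries. Asah1 and Atp6v0d2 (5.41% of the 37) had none in any library, as had 56.4% of coding genes. The V1 subunits were called most evenly, with 5 of 6 in all 4 libraries. Of the 9 peptidases, 5 were called in all 4 libraries, as were 3 of 6 glycosidases, 2 of 5 genes of sphingolipid breakdown and related proteins, and 3 of 6 Vo and accessory subunits.

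A promoter peak in both esculetin libraries but in neither control library was found at 3 of the 37 genes, Psap, Atp6v0b and Atp6v0c, whereas 0.41% of coding genes (88 of 21468) showed this pattern. Psap encodes prosaposin, the precursor of the saposins that present sphingolipids to their hydrolases. Atp6v0b and Atp6v0c encode proteolipid subunits of the Vo rotor, the ring that carries protons across the membrane. The reverse pattern, both control libraries and neither esculetin library, was found at 1 of the 37, Ctsz, against 3.34% of coding genes (717 of 21468). Neither count was stable. With a −log10 q of at least 5 there were 2 genes in each class, and Psap and Ctsz were in neither, while without esculetin replicate 2 there were 3 against 4. With equal list lengths there were 6 (Atp6v0b, Atp6v0c, Grn, Ctsb, Neu1 and Tfe3) against 0, where 4.14% of coding genes were called in both esculetin libraries only and 0.470% in both control libraries only. The esculetin lists are the shorter ones. No test was made of these counts, because the list was chosen with earlier results of these data known and a call is a threshold, not a level.

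At Psap (chr10:60277628-60302600, plus strand) the promoter peak covered chr10:60277513-60278033 in esculetin replicate 1 and chr10:60277506-60278118 in replicate 2. The peaks stood at percentiles 56.5 and 13.7, the percentile being the place of a peak when its own list is ordered by −log10 p (100 is strongest). The nearest control summit within the span examined, 10 kb before the gene to its 3′ end, lay 7154 bp into the gene in control replicate 2 (percentile 2.38) and 17017 bp into it in control replicate 1 (percentile 30.2). Psap has 2 listed starts. When any listed start was accepted, a control library also had a promoter peak and Psap left the class.

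At Atp6v0b (chr4:117884330-117887333, minus strand) both esculetin summits lay at nearly the same base, 45 and 47 bp before the 5′ end, with percentiles 22.7 and 45.7. They were 16 and 18 bp from the nearer of its E-box cores shown above. The nearest control summits before the gene were at -4684 and -4742 bp from its 5′ end, within 1 kb of the start of the neighbouring gene Dph2, apart from a control replicate 2 peak at the 3′ end (percentile 17.9), which lies within 1 kb of the start of B4galt2. At Atp6v0c (chr17:24163865-24169678, minus strand) the strongest promoter summit lay 157 bp into the gene in esculetin replicate 1 and 69 bp before it in esculetin replicate 2, with percentiles 49.8 and 41.7. Neither control library had a summit within 2 kb of that 5′ end. The highest of the 6 percentiles was thus the 56.5 of Psap, and the esculetin libraries did not order the same way at Psap and Atp6v0b.

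Psap and Atp6v0c had no E-box core in their listed windows. Their start sites are shown with Atp6v1d (described below) and with the GC box in capitals, read on either strand. The stretches are chr10:60277508-60277657 (Psap, plus), chr17:24169649-24169798 (Atp6v0c, minus, first listed start) and chr12:78861609-78861758 (Atp6v1d, minus).
Psap: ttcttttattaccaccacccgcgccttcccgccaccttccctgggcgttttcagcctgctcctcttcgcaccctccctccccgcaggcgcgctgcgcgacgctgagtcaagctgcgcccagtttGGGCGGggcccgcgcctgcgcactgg
Atp6v0c: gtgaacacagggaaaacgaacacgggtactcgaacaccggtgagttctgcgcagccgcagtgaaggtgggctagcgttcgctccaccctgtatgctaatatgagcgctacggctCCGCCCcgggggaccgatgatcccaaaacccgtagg
Atp6v1d: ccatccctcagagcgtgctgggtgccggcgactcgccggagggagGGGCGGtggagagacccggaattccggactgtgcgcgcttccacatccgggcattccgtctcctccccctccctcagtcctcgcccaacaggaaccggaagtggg

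Ctsz (chr2:174427494-174439039), which encodes the carboxypeptidase cathepsin Z, had weak promoter peaks in the control libraries, at percentiles 11.3 and 2.58, and none with esculetin. Further peaks inside Ctsz, 1149 and 2524 bp from its 5′ end, were likewise called in both control libraries alone.

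The regulators behaved differently from each other. Tfe3 (chrX:7762530-7775202) had a single promoter peak in every library, with summits 89 to 123 bp inside the gene. Its percentile was 51.0 and 58.0 in the controls and 74.1 and 80.3 with esculetin, so both esculetin libraries lay above both controls. Tfeb (chr17:47737037-47792416), which has 3 listed starts, had a promoter peak in both control libraries (percentiles 68.3 and 27.8) and in esculetin replicate 1 (29.9), and none in esculetin replicate 2. The summits were 35 and 50 bp before the 5′ end in control replicate 1 and esculetin replicate 1, and 793 bp after it in control replicate 2, near the second listed start. Esculetin replicate 2 had its nearest summit 1383 bp after the 5′ end (percentile 14.3).

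Inside Tfeb a series of regions was called mainly in the control libraries. The region 17354 bp from the 5′ end had percentiles of 48.7 and 73.6 in the controls and 35.3 in esculetin replicate 2. That at 31811 bp had 64.3 and 68.6 in the controls and 32.3 in esculetin replicate 2. A region at 22862 bp was called in both control libraries (61.0 and 37.4) and in neither esculetin library. Esculetin replicate 1, the shortest list, had none of these intragenic peaks.

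**Figure D2:**
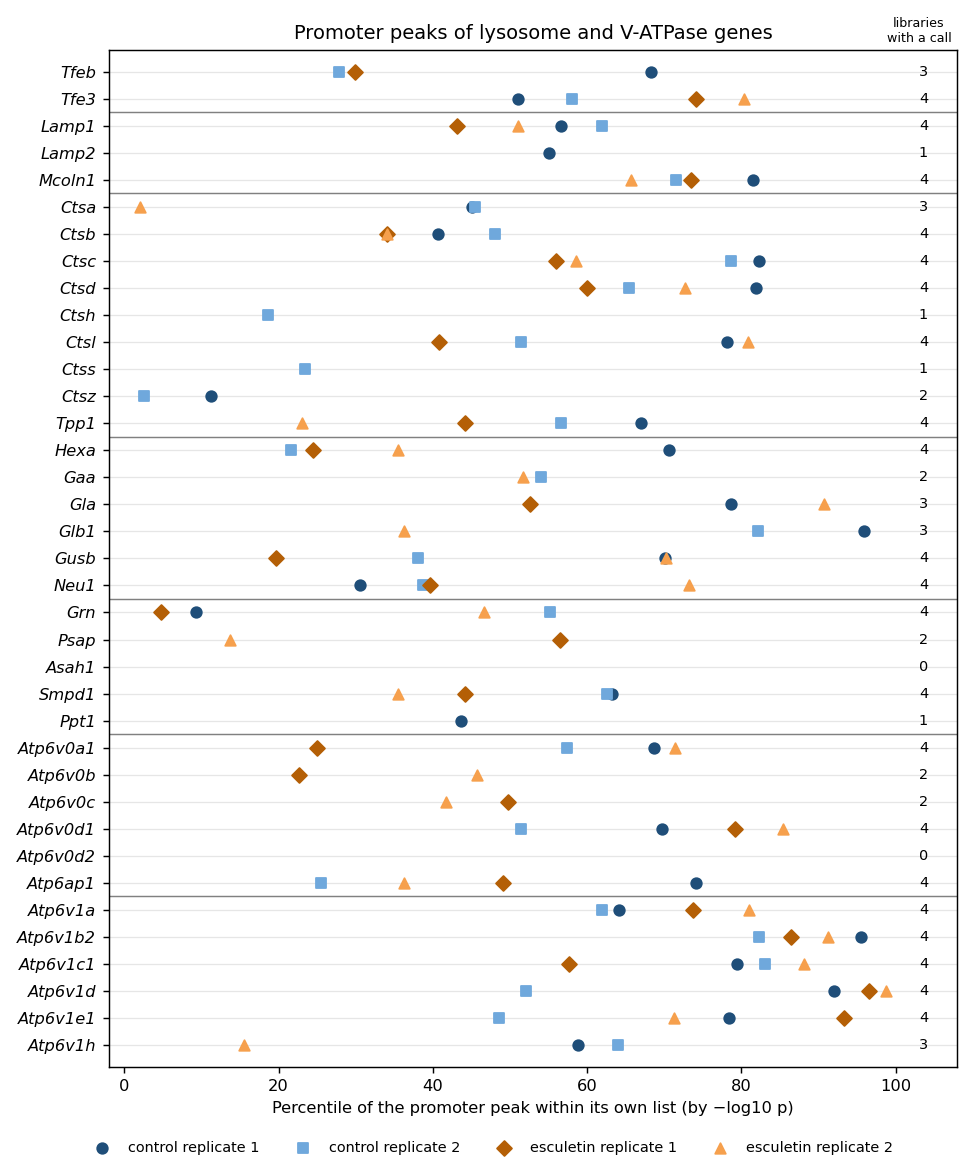
Percentile of the strongest promoter peak within its own list (horizontal axis) for each gene (rows, grouped by role and separated by lines), one symbol per library, with the number of libraries that had a call at the right. Psap, Atp6v0b and Atp6v0c carry esculetin symbols only; Tfe3, Atp6v0d1, Atp6v1a and Atp6v1d have both esculetin symbols to the right of both control symbols.

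The strength of the promoter peaks was compared in the 21 genes called in all 4 libraries. In 5 of them both esculetin percentiles lay above both control percentiles (14.7% of the 5323 coding genes called in all 4), and in another 5 both lay below (29.5% of those coding genes). The higher genes were Tfe3, Neu1, Atp6v0d1, Atp6v1a and Atp6v1d. The lower genes were Lamp1, Ctsb, Ctsc, Tpp1 and Smpd1. A single gene cannot be called by permutation here, because a two-sided exact permutation test of 2 libraries against 2 cannot give less than p = 0.33.

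Among the V-ATPase genes that were higher, Atp6v1d (chr12:78842982-78862008), a subunit of the central stalk, had percentiles of 92.0 and 52.0 in the controls and 96.5 and 98.7 with esculetin. Control replicate 2 stood far below the others, and control replicate 1 was close to the esculetin libraries. Atp6v0d1 (chr8:105524461-105566064), which joins the stalk to the Vo sector, had 69.7 and 51.4 in the controls and 79.2 and 85.4 with esculetin. For Atp6v1a (chr16:44085402-44139702), the catalytic subunit, the values were 64.1 and 62.0 against 73.7 and 81.0. Both control values of Atp6v1a agreed closely, and its control replicate 1 value came from another peak of the same window. The peak at the summit shared by the other libraries stood at 52.0 there. All 3 promoters lie within 1 kb of the start of another gene (Eif2s1 at Atp6v1d, Gm38250 at Atp6v0d1, Naa50 at Atp6v1a), so the peak cannot be assigned to the V-ATPase gene alone.

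Neu1 (chr17:34931253-34937297), a sialidase, had percentiles of 30.5 and 38.8 in the controls and 39.7 and 73.2 with esculetin. Only esculetin replicate 2 stood clearly apart, since esculetin replicate 1 was less than 1 percentile above control replicate 2.

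The genes that were lower encode peptidases, a membrane protein and a lipid hydrolase. Tpp1 (chr7:105744811-105752282), tripeptidyl peptidase, had percentiles of 67.0 and 56.6 in the controls and 44.2 and 23.0 with esculetin. Ctsc (chr7:88278024-88315861), the dipeptidyl peptidase cathepsin C, had 82.3 and 78.7 against 56.0 and 58.6. At Smpd1 (chr7:105554360-105558389), acid sphingomyelinase, the control values were 63.2 and 62.6 and the esculetin values 44.2 and 35.5. The Smpd1 peak lies within 1 kb of the start of Gm39063, so it cannot be assigned to Smpd1 alone. Lamp1 and Ctsb lay closer together: Lamp1, a glycoprotein of the lysosomal membrane, had 56.6 and 61.9 against 43.1 and 51.1, and Ctsb, cathepsin B, had 40.6 and 48.1 against 34.1 and 34.1.

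The percentile within a whole list also depends on how many weak peaks the list holds, so the 5323 coding genes called in all 4 libraries were ranked among themselves in each library. On that scale 24.8% of the coding genes were higher in both esculetin libraries and 24.1% lower. The same 5 of the 21 members remained higher, which is near the share of coding genes. Of the 5 lower members only Ctsc remained, at 53.9 and 57.7 in the controls and 39.4 and 23.5 with esculetin. The lower position of Lamp1, Ctsb, Tpp1 and Smpd1 therefore depended on the scale. The median of the 21 members on this scale was 33.1 and 22.8 in the controls and 31.5 and 40.9 with esculetin, below the median of 50.0 of all these genes in every library. On the whole-list scale the medians were 70.1 and 56.6 in the controls and 49.1 and 71.3 with esculetin, so the order of the groups was not the same on both scales.

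Fold enrichment at the summit was tested with limma over the same 5323 genes, after quantile normalization on the log2 scale. With Benjamini-Hochberg adjustment none of the 21 members passed 0.05, while 4 coding genes (0.0751%) were higher and 2 (0.0376%) lower with esculetin. At an unadjusted p under 0.05 there were 2 members, against 13.0% of the 5323 genes. They were Atp6v1d, with a normalized log2 fold of 2.76 and 2.17 in the controls and 3.14 and 3.19 with esculetin (difference 0.70 ± 0.21 SE, limma adjusted p = 0.13), and Atp6v0d1, with 2.25 and 2.09 against 2.65 and 2.54 (difference 0.42 ± 0.20 SE, limma adjusted p = 0.37). Tfe3 had 2.22 and 2.40 against 2.77 and 2.58, a difference of 0.37 ± 0.21 (SE; limma adjusted p = 0.45). The most negative difference among the 21 was that of Tpp1, -0.23 ± 0.21 (SE; limma adjusted p = 0.66). The median difference was 0.03 over the 21 members and 0.01 over all genes. In simulated data the same procedure recovered 95% of changes of 1 and 27% of changes of 0.5 on the log2 scale. The simulated noise was normal, with the median within-group SD of the data used at every gene. Recovery would be lower at genes with a wider spread, so changes of the size seen here would often be missed.

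**Figure D3:**
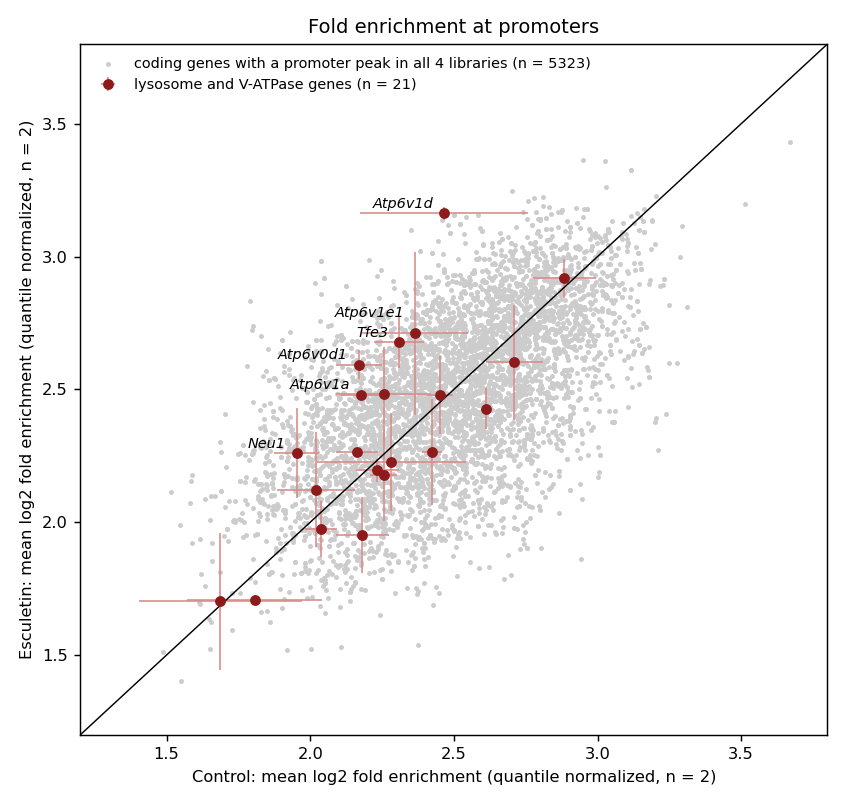
Mean log2 fold enrichment at the promoter summit in the control group (horizontal) and the esculetin group (vertical), quantile normalized, for the 5323 coding genes called in all 4 libraries (grey) and the 21 lysosome and V-ATPase genes among them (red; bars reach the values of the 2 libraries of each group; the line marks equality). Among the red points Atp6v1d lies farthest above the line, and its horizontal bar, from 2.17 to 2.76, is among the widest.

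The other 11 members called in all 4 libraries overlapped between the groups by percentile. The strongest was Atp6v1b2, the B subunit of V1, with 95.5 and 82.3 in the controls and 86.4 and 91.3 with esculetin. Mcoln1, the calcium-permeable channel of the lysosome, had 81.4 and 71.5 against 73.4 and 65.6. Ctsd, cathepsin D, had 81.9 and 65.4 against 60.03 and 72.7. The weakest was Grn, progranulin, in which the replicates of both groups were far apart, at 9.33 and 55.2 in the controls and 4.75 and 46.6 with esculetin. Atp6v1e1, Atp6v1c1, Atp6v0a1, Atp6ap1, Ctsl, Gusb and Hexa were likewise mixed. At Atp6v1e1 the highest value was that of esculetin replicate 1 (93.2) and the lowest that of control replicate 2 (48.5).

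Some promoter calls were missing from 1 or more libraries without separating the groups. Esculetin replicate 1 alone lacked Glb1, beta-galactosidase, which stood at 95.8 and 82.1 in the controls and at 36.3 in esculetin replicate 2. It also alone lacked Atp6v1h (58.8, 64.0 and 15.6 in the same order) and Ctsa (45.1, 45.4 and 2.08). The Ctsa value of control replicate 1 came from another peak, at -38 bp from the 5′ end. The summits of control replicate 2 and esculetin replicate 2 lay at 761 and 773 bp. A second peak of control replicate 1, at 900 bp, stood at 34.9. Gla, alpha-galactosidase A, was missing from control replicate 2 alone and had 78.6 in control replicate 1, with 52.6 and 90.7 with esculetin. Gaa, acid alpha-glucosidase, was called in control replicate 2 (54.1) and esculetin replicate 2 (51.7). Single-library calls were those of Lamp2 (55.1) and Ppt1 (43.6) in control replicate 1, and of Ctsh (18.7) and Ctss (23.4) in control replicate 2.

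Peaks away from the promoter were counted next, again in whole lists of unequal length. From 10 kb before the 5′ end to the 3′ end, and over 1 kb from the 5′ end, the 37 genes held 35 and 63 peaks in the controls and 9 and 11 with esculetin. Group means were 49.0 ± 19.8 and 10.0 ± 1.41 (SD, n = 2 each), and the groups did not overlap. All coding genes together showed the same order, with 8562 and 15182 such peaks in the controls and 2761 and 4641 with esculetin. As shares of genes with at least 1 such peak, the members had 56.8% and 81.1% in the controls and 21.6% and 21.6% with esculetin, against 27.9%, 40.9%, 12.5% and 19.0% of coding genes in the same order. With equal list lengths the members had 14 and 17 such peaks in the controls and 9 and 5 with esculetin (means 15.5 and 7.0), and all coding genes had means of 3594 and 2767. At that length the promoter counts differed in the opposite direction, 13.0 against 25.5.

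**Figure D4:**
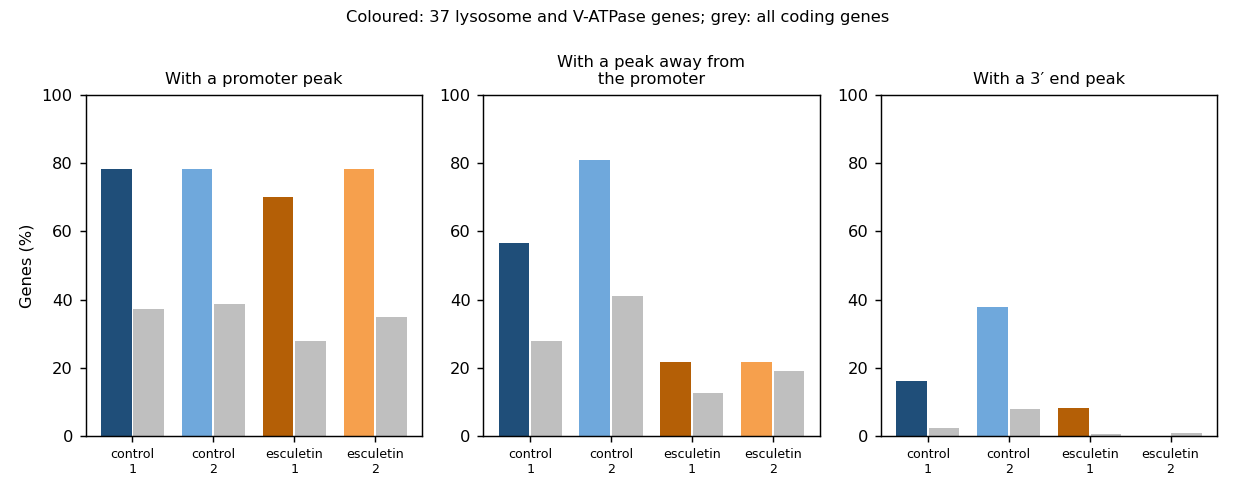
Share of genes (%) with a promoter peak, with a peak away from the promoter and with a 3′ end peak in each library, for the 37 lysosome and V-ATPase genes (coloured) and all 21468 coding genes (grey). Promoter shares of the 37 genes stay between 70.3% and 78.4%, whereas the other shares are highest in control replicate 2.

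Joining overlapping peaks gave 77 regions away from promoters, of which 60 (77.9%) were called in control libraries only, including 37 (48.1%) in control replicate 2 alone and 12 (15.6%) in both control libraries. The same joining over all coding genes gave 22296 regions, with shares of 73.4%, 47.3% and 13.6%, so these shares were near those of coding genes in general. All 4 libraries shared 2 regions (2.60%, against 8.62% over all coding genes). The stronger lay 22889 bp inside Asah1 (chr8:41374429-41375122), which encodes acid ceramidase and lacked promoter calls, at percentiles 98.4 and 92.8 in the controls and 56.0 and 82.0 with esculetin. The other lay 12120 bp inside Ppt1 (chr4:122848055-122848473), a thioesterase that removes fatty acids from proteins, with 67.5 and 70.5 against 52.1 and 66.3.

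Atp6v0d2, an isoform of the d subunit known from osteoclasts and macrophages, also lacked a promoter peak but held a cluster of intragenic regions about 27 kb from its 5′ end. The region at 27227 bp had percentiles of 75.2 and 74.4 in the controls and 20.7 in esculetin replicate 2, and that at 26722 bp had 75.3 and 83.0 in the controls and no call in either esculetin library. Regions called in esculetin libraries only were 2 of the 77 (2.60%), against 8.77% over all coding genes. One, 21306 bp inside Atp6v1e1 (chr6:120801263-120801508), was called in both esculetin libraries, at percentiles of 21.4 and 11.6, and this class held 1.30% of the member regions and 0.776% of those of coding genes. The other lay 38957 bp inside Atp6v0a1 and was called in esculetin replicate 1 alone (percentile 5.68). These percentiles are places in lists of unequal length, and a missing call gives no level, so the strength of these regions was not compared between the groups.

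**Figure D5:**
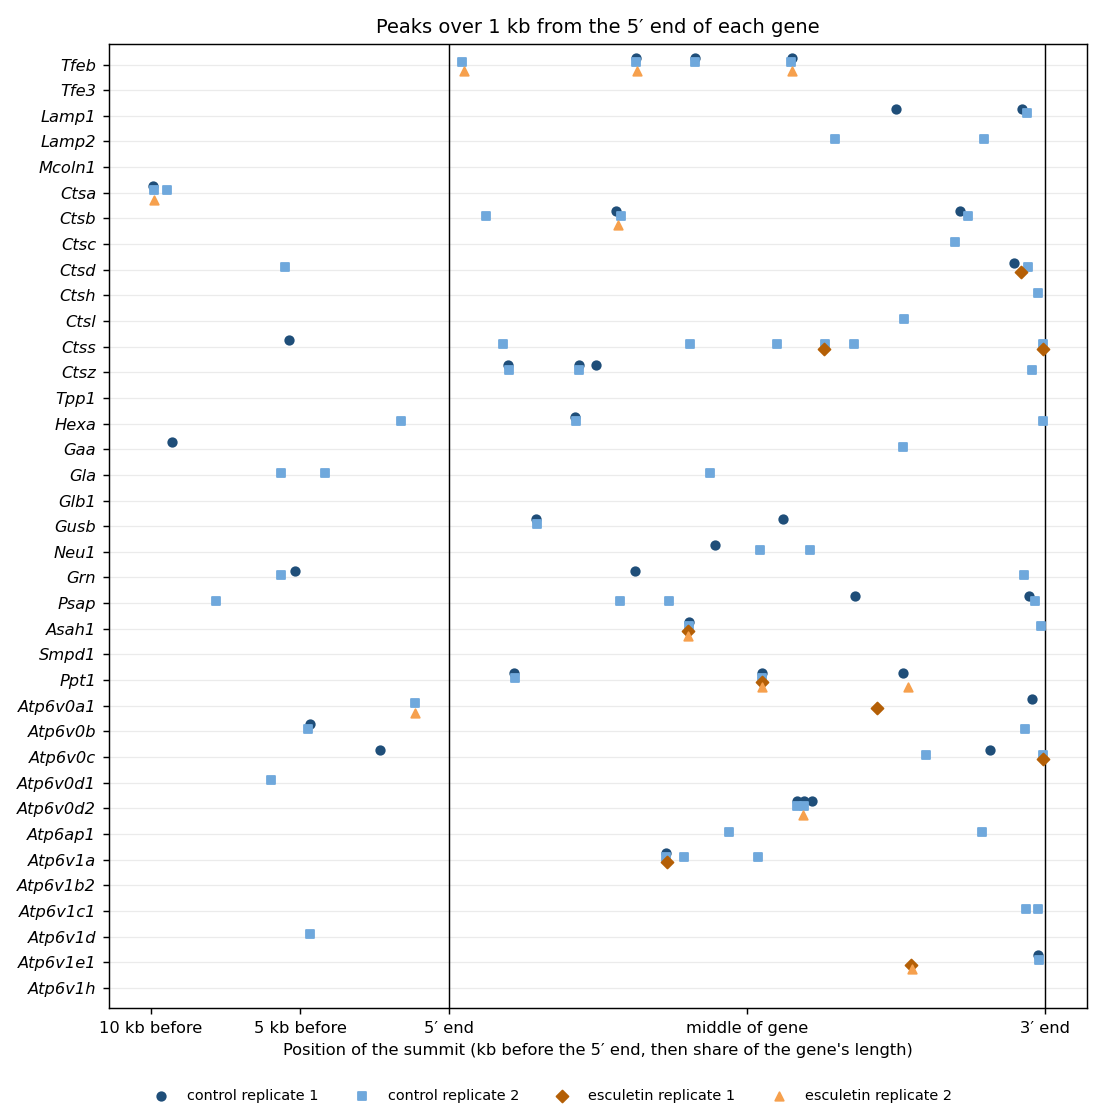
Position of every summit over 1 kb from the 5′ end, as distance before the gene on the left and as a share of the gene's length between the vertical lines, with 1 row per gene and 1 symbol per library. Blue control symbols prevail, also at the 3′ end; Asah1 and Ppt1 each have 1 place with all 4 symbols.

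Peaks at the 3′ end, defined as summits in the last 2 kb of the gene and over 1 kb from the 5′ end, were counted separately. They occurred in 6 (16.2%) and 14 (37.8%) of the 37 genes in the control libraries, and in 3 (8.11%) and 0 with esculetin. Group means were 10.0 ± 5.66 and 1.5 ± 2.12 (SD, n = 2 each). Over all coding genes the shares were 2.16% and 7.80% in the controls and 0.536% and 0.778% with esculetin, again highest in control replicate 2. Without control replicate 2 the control value was 6 genes. With equal list lengths 3 and 4 of the 37 genes had such a peak in the controls and 3 and 0 with esculetin (means 3.5 and 1.5), so control replicate 1 and esculetin replicate 1 were tied and the groups were not separated. Over all coding genes the shares at that length were 0.526% and 2.86% in the controls and 0.536% and 0.429% with esculetin, so control replicate 2 alone stood apart.

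The strongest 3′ end peak was that of Ctss, cathepsin S, a protease of antigen-presenting cells, at percentile 99.3 in control replicate 2 and 94.5 in esculetin replicate 1. Control replicate 1 and esculetin replicate 2 had none there, and the promoter of Ctss was called only in control replicate 2, at 23.4. At Ctsd the 3′ end stood at 71.0 and 94.8 in the controls and 33.0 in esculetin replicate 1. Psap had 3′ end peaks in both control libraries, at 93.2 and 32.2, and a promoter peak in neither of them. The opposite held with esculetin, where Psap had the promoter peak and no 3′ end peak. Lamp1 had 67.3 and 53.5 in the controls and none with esculetin. Atp6ap1, an accessory subunit, and Ctsz had 3′ end peaks in control replicate 2 alone, at 74.3 in each.

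Several peaks in these spans belong as much to a neighbour. The promoter peaks of Glb1, Gla, Atp6v1b2, Hexa, Ctsa and Lamp2 lie within 1 kb of the start of another gene. In that order these are Tmppe, Hnrnph2, Slc18a1, Tmem202, Neurl2 and LOC115489130. The strongest peak before a member, at -4182 bp from the 5′ end of Gla in control replicate 2 (percentile 99.1), lies inside Hnrnph2. The peaks about 9.9 kb before Ctsa lie at the start of Zswim1, and the 3′ end peak of Atp6v0c at percentile 52.0 in control replicate 2 lies within 1 kb of the start of Amdhd2. Exon boundaries of this build were not used here, so exonic and intronic summits were not told apart.

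Other genes of the pathway were taken from 6 lists of subunits, hydrolases, membrane proteins, sorting receptors, nutrient sensors and autophagy genes, 87 of 88 of which could be matched. Of the 87, 43 (49.4%, against 24.8% of coding genes) had a promoter peak in all 4 libraries and 13 (14.9%, against 56.4%) in none. Only Igf2r, the cation-independent mannose 6-phosphate receptor that delivers hydrolases to the lysosome, was called with esculetin alone, in both libraries, at percentiles 8.92 and 34.04. The reverse was found at 3 genes (these patterns held for 0.41% and 3.34% of coding genes), Atp6v0e2 (32.6 and 32.6), Ctso (61.8 and 29.6) and Sgsh (34.2 and 43.1). These counts are for whole lists, and their order turned with equal list lengths. There 8 of the 87 (9.20%, against 4.14% of coding genes) were called in both esculetin libraries only. The reverse was then found at 0 of the 87, against 0.470% of coding genes. By whole-list percentile 3 of the 43 (6.98%, against 14.7% of coding genes called in all 4) were higher in both esculetin libraries and 21 (48.8%, against 29.5%) were lower. Ranked among the same genes, 6 (14.0%, against 24.8%) were higher and 19 (44.2%, against 24.1%) were lower. Of the 13 further V-ATPase subunits, 4 had a promoter peak in all 4 libraries and 5, among them Atp6v0a4 and Atp6v1b1, in none.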

How the data were processed

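ATAC-seq peak lists of 4 RAW264.7 libraries (2 control, 2 esculetin, grouped by the treatment in the labels) were analysed. The authors state that reads were trimmed (Trim Galore) and aligned to mm10 (Bowtie2), that Sambamba took out PCR duplicates and reads with several alignments, and that MACS2 made the peak lists, 1 per library. MACS2 options, including any shift of read ends, are not given in the sources used here. The deposited lists give a fold enrichment (a linear ratio to local background), −log10 p, −log10 q and a score, which was 10-fold the −log10 q, cut to a whole number, in nearly all rows. They hold no read counts, so the count model of the study was not run. Depth was recovered by solving fold and −log10 p for the background coverage.

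Genes came from RefSeq (GRCm38.p6). The strand came from the RefSeq promoter table (30 members) or, by symbol and chromosome, from GENCODE vM39 (7 members). Both sources gave the same strand for 99.3% of 15832 coding genes that they share. The TSS was the 5′ end of the gene, and the strongest summit within 1 kb by −log10 p was its promoter peak. Members and lists were chosen with earlier results of these data known. Genes named in full were the regulators, members whose calls differed between libraries, members whose percentiles separated the groups and the 6 strongest 3′ end peaks. limma 3.58.1 was fitted to log2 fold with Benjamini-Hochberg adjustment over all 5323 genes and was tested on simulated data. Peak names in the esculetin lists carry E2 and E3, where the labels number the libraries 1 and 2. Other steps were run in R 4.3.3 and, for tables, statistics and plots, in SciPy 1.17.1, NumPy 2.4.6, matplotlib 3.10.9 and pandas 2.3.3 under Python 3.11.15. Values of coding genes and other pathway genes at equal list length, group-only calls included, and coding-gene values for joined regions were added after seeing the data.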

Additional observations from a re-analysis of the deposited data

How the results depend on the processing

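With 2 libraries per group, directions and sizes are described and list counts carry no test. The number of members with a promoter peak (difference -1.5) ranged from -3 to 0 when 1 library was left out and turned to 12.5 with equal numbers of top peaks. The count called in both esculetin libraries only (3) ranged from 3 to 4 without 1 library and was 6 with equal numbers of top peaks. Psap was not among them there, nor with a −log10 q of at least 5, nor with any listed start. The count called in both control libraries only (1) ranged from 2 to 4 without 1 library, was 2 with a −log10 q of at least 5 (Atp6v1h and Ctsa, without Ctsz) and 0 with equal numbers of top peaks. These alternatives for the 2 counts, any listed start, and peaks away from promoters without those at other genes (-32.5) were chosen after seeing the data.

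The difference in the median promoter percentile (-3.15) had no stable direction. It ranged from -16.2 (without esculetin replicate 2) to 4.51 (without esculetin replicate 1), was 3.62 without control replicate 1, and was 17.8 with equal numbers of top peaks (4 members only), 3.72 within coding promoter peaks, 8.24 among genes called in all 4 libraries and 3.92 by fold enrichment. Peaks away from the promoter (-39) and 3′ end genes (-8.5) kept their direction in all alternatives run, from -53 to -25 and from -12.5 to -4.5 without 1 library, and were -8.5 and -2 with equal numbers of top peaks, where the 3′ end counts no longer separated the groups.

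No member was called by limma under any of the 8 alternatives. The 6 coding genes called became 0 with median centring, 26 with a pseudocount of 1, 30 with a −log10 q of at least 5, and 0 to 48 without 1 library. The replicate block gave 40 coding genes and no member. It leaves differences of group means as they are by arithmetic, so it is no check on them. The libraries share only a number: deviations of same-numbered libraries had a correlation of -0.00323 over 5323 genes, and the esculetin peak names carry other numbers. The causes of these changes were not tested. Depth was not recorded as read counts, so sites too weak to be called have no value here.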
